A study of Mus musculus with 7 samples.

Results

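Syndecans 1 to 4 (Sdc1, Sdc2, Sdc3 and Sdc4), Cspg4 and Ptprz1 are cell-surface proteoglycans that receive signals from the extracellular matrix. They were chosen by name, with earlier results of these data known, and are 6 of the 56854 gene identifiers counted in all 7 libraries. The libraries were poly(A) RNA-seq of whole mouse shoulder joints, taken 2 weeks after the left supraspinatus tendon was repaired, with 1 library per mouse. Wild-type mice gave 3 libraries and Tnc-/- mice, which lack the matrix glycoprotein tenascin-C, gave 4. All 7 shoulders had been repaired and no unoperated joint was analysed here. The labels give no age, sex or strain, and do not say how the Tnc allele was made.

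Syndecans span the membrane with a short conserved cytoplasmic tail and carry heparan sulfate chains, by which they hold growth factors and fibronectin beside integrins. Cspg4 (NG2) is a chondroitin sulfate proteoglycan of pericytes and other progenitor cells that binds collagen VI. Ptprz1 is a receptor tyrosine phosphatase with chondroitin sulfate chains, best known from glia, and it binds tenascins, contactin-1, pleiotrophin and midkine. Tenascin-C itself is known to interfere with the work of syndecan-4 as a fibronectin co-receptor.

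The wild-type libraries held 13.5 to 18.5 M gene counts (M, mega) and the Tnc-/- libraries 19.3 to 28.2 M. The mean level of Tnc, the gene named in the genotype, was 352 CPM in the wild-type joints (SD 75.5, n = 3) and 41.8 CPM in the Tnc-/- joints (SD 9.26, n = 4), with 698 to 1051 counts left per Tnc-/- library. CPM are counts per M of TMM-scaled library size, unless raw totals are named. Wild-type library 1 stood apart from wild-type libraries 2 and 3, with a chi-square per degree of freedom of 123 and 84.6 against them, while these differed from each other by 22.4 and Tnc-/- libraries by 20.3 to 47.8. Receptor genes of smell and pheromone sensing, which a joint is not known to use, summed to 89.8, 1564 and 1113 CPM of raw totals over wild-type libraries 1, 2 and 3, against 33.3 to 41.5 CPM in Tnc-/-. The fits were therefore repeated with wild-type library 1 as the only wild-type library, and with that receptor level as a covariate. In the first of these the lone wild-type library is assumed to vary as the Tnc-/- libraries do. In the second, the receptor level was higher in every wild-type library than in every Tnc-/- library. The covariate therefore partly follows genotype, and a call lost in that fit cannot be assigned to either. The counts of the genotypes come from separate counting runs, so run and genotype cannot be told apart here. In whole joints, fewer cells of a type and less RNA per cell cannot be told apart.

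Of the 6 proteoglycan genes, Sdc3 was higher and Sdc2 and Ptprz1 were lower in Tnc-/- joints. Sdc3 was 2.05-fold higher, Sdc2 1.44-fold lower and Ptprz1 2.22-fold lower. Sdc1, Sdc4 and Cspg4 did not pass the test. These 3 calls among 6 genes, at an adjusted p under 0.05 (edgeR's quasi-likelihood test with Benjamini-Hochberg adjustment over 17791 genes), stand beside 29.0% of all genes tested. By direction the backgrounds were 10.3% called higher and 18.7% called lower. All 6 genes passed the filter on low counts. With library totals as scaling, the calls over all genes were 951 higher and 4541 lower, against 1830 higher and 3329 lower with TMM, and the all-gene median of the log2 fold change moved from -9.0e-04 to -0.24. Every call among the 6 was lost with wild-type library 1 alone and with the receptor covariate, where 825 and 397 genes were called over the whole table.

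**Figure D1:**
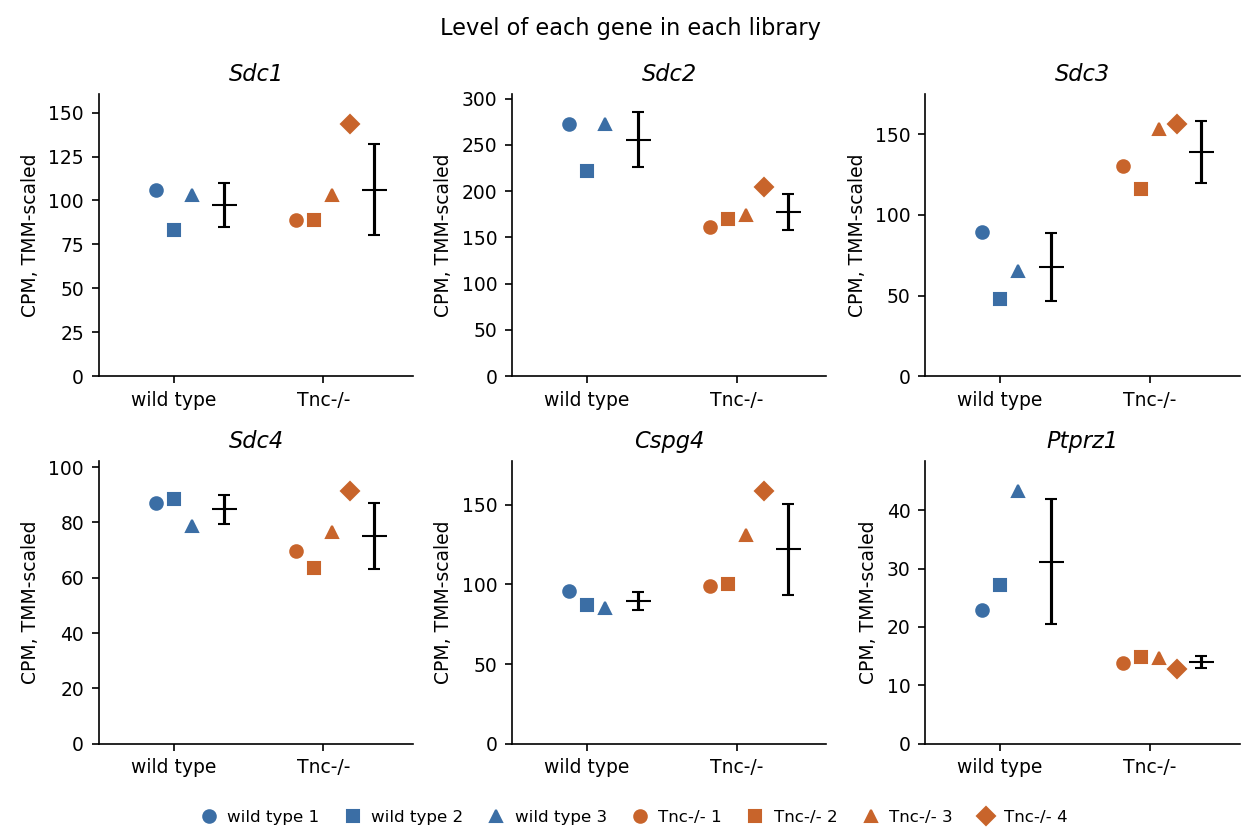
Normalised level of each of the 6 genes in every library, in TMM-scaled CPM on linear axes that start at 0, by genotype. Each point is 1 library, and the bars beside them are the group mean ± SD. Sdc3 is higher and Sdc2 and Ptprz1 are lower in all 4 Tnc-/- libraries than in all 3 wild-type libraries, while Sdc1 and Sdc4 overlap.

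Promoter sequence is shown for Sdc3 and Ptprz1, the genes of the 6 with the largest changes when all libraries were fitted with TMM scaling, which went in opposite directions. The windows are the 250 bases before the RefSeq gene start in GRCm38.p6, both on the plus strand, at chr4:130792287-130792536 for Sdc3 and chr6:22875252-22875501 for Ptprz1. Capitals mark GC boxes, GGGCGG or its reverse complement CCGCCC, searched on both strands.
Sdc3: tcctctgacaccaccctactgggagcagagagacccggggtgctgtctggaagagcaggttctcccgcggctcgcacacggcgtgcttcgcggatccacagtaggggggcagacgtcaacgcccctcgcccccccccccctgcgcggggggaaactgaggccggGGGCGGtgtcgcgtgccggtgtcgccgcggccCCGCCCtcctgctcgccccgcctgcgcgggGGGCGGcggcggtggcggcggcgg
Ptprz1: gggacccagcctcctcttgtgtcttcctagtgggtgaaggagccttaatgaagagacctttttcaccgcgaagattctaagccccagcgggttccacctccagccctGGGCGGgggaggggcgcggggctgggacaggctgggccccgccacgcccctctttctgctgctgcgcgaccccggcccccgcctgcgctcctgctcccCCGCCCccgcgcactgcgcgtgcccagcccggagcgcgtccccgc
The Sdc3 window held 3 GC boxes and 76.4% G and C, and the Ptprz1 window 2 GC boxes and 71.6%. Of the 6 genes, 5 had a window, and Sdc1, Sdc4 and Cspg4 held 3, 4 and 2 GC boxes. A GC box was present in 32.7% of the 32851 windows of this length in the table, whose median was 52.4% G and C. Sdc2 had no window in the table. A match is a description of the letters only.

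Sdc2 (ENSMUSG00000022261), the syndecan of mesenchymal and fibroblast cells, was the most abundant of the 4 syndecans. Its level was 273, 221 and 272 CPM in wild-type libraries 1, 2 and 3 and 161, 169, 175 and 205 CPM in Tnc-/- libraries 1 to 4. The groups did not overlap, every Tnc-/- library being the lower, with the Tnc-/- 4 library nearest to them. The mean fell from 255.5 ± 29.5 CPM (SD, n = 3) to 177 ± 19.0 CPM (SD, n = 4), and the log2 fold change was -0.53 (SE 0.14; edgeR's quasi-likelihood test, Benjamini-Hochberg adjusted p = 0.0271). On CPM of raw totals the groups were also apart. The fall kept its sign with wild-type library 1 alone, at -0.62 (edgeR, adjusted p = 0.0640), and with the receptor covariate, at -0.72 (edgeR, adjusted p = 0.123), so its size was no smaller in either, though the call was lost. The call was lost as well without wild-type library 3 (edgeR, adjusted p = 0.0982) or without Tnc-/- library 1, 2 or 3 (0.0743, 0.0712 and 0.0839).

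Sdc3 (ENSMUSG00000025743), the large syndecan of nerve and of muscle progenitors, moved the other way. Its level was 89.6, 48.0 and 65.4 CPM in the wild-type libraries and 130.2, 116, 153 and 157 CPM in the Tnc-/- libraries. Every Tnc-/- library exceeded every wild-type library, and wild-type library 1 was the closest to them. The mean rose from 67.7 ± 20.9 CPM (SD, n = 3) to 139 ± 19.3 CPM (SD, n = 4), and the log2 fold change was 1.04 (SE 0.22; edgeR's quasi-likelihood test, Benjamini-Hochberg adjusted p = 0.0109). Against wild-type library 1 alone the log2 fold change was 0.63 (edgeR, adjusted p = 0.0889), and with the receptor covariate 0.36 (edgeR, adjusted p = 0.498). The call was also lost without wild-type library 3 (edgeR, adjusted p = 0.0533). Exons of Sdc3 overlap 2 antisense genes of the GENCODE M21 annotation, Gm26716 over 415 bases and Gm12970 over 48 bases, and both were listed with 0 counts in all 7 libraries. Summed markers of some other tissues were also higher in Tnc-/-. Skeletal muscle fibre markers ran from 21614 to 28371 CPM in wild type and from 31007 to 46559 CPM in Tnc-/-. Of these 8 markers, 2 were called higher, beside 10.3% of all genes called higher. Ranges overlapped for Acta1 and Ckm. Those of Myh4, Myh1, Tnnt3, Mylpf, Pvalb and Ryr1 did not, with every Tnc-/- library the higher. Non-overlap in either direction held for 35.1% of all genes. The 8 marrow neutrophil markers ran from 2708 to 5651 and from 6240 to 10622 CPM, with 5 called higher. Satellite cell and myoblast markers overlapped, at 78.2 to 114 CPM and 83.6 to 123 CPM, with 1 of 7 called higher and 1 lower. The part of these cells in the Sdc3 difference was not tested.

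Sdc4 (ENSMUSG00000017009), the syndecan of focal adhesions, was at 86.9, 88.5 and 78.8 CPM in the wild-type libraries. In the Tnc-/- libraries it was at 69.5, 63.4, 76.5 and 91.3 CPM. Of these, 3 lay below every wild-type library and Tnc-/- 4 lay above them all. The means were 84.7 ± 5.21 CPM (SD, n = 3) and 75.2 ± 11.99 CPM (SD, n = 4), and the log2 fold change of -0.17 (SE 0.15) did not pass the test (edgeR, Benjamini-Hochberg adjusted p = 0.399). This outcome depended on the scaling. On CPM of raw totals Sdc4 was at 87.5, 98.9 and 89.3 in wild type and at 66.7, 58.3, 71.0 and 83.4 in Tnc-/-, with no overlap, and with library totals in edgeR it was called lower at -0.42 (adjusted p = 0.0487).

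Sdc1 (ENSMUSG00000020592), the syndecan of epithelia and plasma cells that is also induced in wounds, showed no difference that passed the test. It was at 106, 83.2 and 103 CPM in the wild-type libraries and at 88.7, 89.1, 103 and 144 CPM in the Tnc-/- libraries. The ranges overlapped and only Tnc-/- 4 was above every wild-type library. The means were 97.3 ± 12.3 CPM (SD, n = 3) and 106 ± 25.9 CPM (SD, n = 4), with a log2 fold change of 0.12 (SE 0.19; edgeR, Benjamini-Hochberg adjusted p = 0.661), whose sign turned to -0.12 with library totals and to -0.060 without Tnc-/- 4. Plasma cell markers summed to 363 to 582 CPM in wild type and 425 to 562 CPM in Tnc-/-, highest in Tnc-/- 4 of the Tnc-/- libraries. Keratinocyte markers were at 20.1, 65.0 and 49.6 CPM over the wild-type libraries and at 15.3 to 24.2 CPM in Tnc-/-. Of 6 tested, 3 were called lower and 0 higher, beside 18.7% of all genes called lower. Trp63, Dsg3 and Col17a1 held most of the sum in wild-type libraries 2 and 3, while Krt5 and Krt14 were near 0 in all libraries and Krt10 and Sfn were higher in every Tnc-/- library than in every wild-type library. Mzb1 of the plasma cell list and Krt15 of the keratinocyte list were at 0 in all libraries.

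Cspg4 (ENSMUSG00000032911) was at 96.0, 87.4 and 85.0 CPM in the wild-type libraries and at 98.8, 100.2, 131 and 158 CPM in the Tnc-/- libraries. The Tnc-/- libraries lay above the wild type, but libraries 1 and 2 did so narrowly. The means were 89.5 ± 5.80 CPM (SD, n = 3) and 122 ± 28.4 CPM (SD, n = 4), and the log2 fold change of 0.45 (SE 0.18) did not pass the test (edgeR, Benjamini-Hochberg adjusted p = 0.0982). It passed without wild-type library 1 (edgeR, adjusted p = 0.0147), a fit in which 64.2% of all genes tested were called. On CPM of raw totals the groups overlapped, at 96.7, 97.7 and 96.3 in wild type and 94.8, 92.1, 122 and 145 in Tnc-/-. The other mural cell markers (pericytes and smooth muscle) summed to 2061 to 2922 CPM in wild type and 2446 to 3368 CPM in Tnc-/-, with 2 of 11 called higher and 1 lower. Most of that sum in every library was Des, which skeletal muscle also expresses, and without Des the sums were 773 to 1035 CPM and 813 to 1098 CPM.

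Ptprz1 (ENSMUSG00000068748) had the lowest level of the 6 and, with all libraries and TMM scaling, a fold change slightly above that of Sdc3. Without wild-type library 1 or 3 and with no filter on low counts the value of Sdc3 was the larger in size, and with the receptor covariate that of Sdc2. Its level was 22.9, 27.2 and 43.3 CPM in the wild-type libraries and 13.8, 14.9, 14.7 and 12.7 CPM in the Tnc-/- libraries. The groups did not overlap, and the wild-type libraries were spread widely while the Tnc-/- libraries lay close together. The mean fell from 31.1 ± 10.7 CPM (SD, n = 3) to 14.0 ± 0.986 CPM (SD, n = 4), and the log2 fold change was -1.15 (SE 0.23; edgeR's quasi-likelihood test, Benjamini-Hochberg adjusted p = 0.00977). Of the 3 calls this was the one kept in every fit that left out a single library, with log2 fold changes from -1.24 to -0.84. Against wild-type library 1 alone it was -0.72 (edgeR, adjusted p = 0.0646) and with the receptor covariate -0.57 (edgeR, adjusted p = 0.397). Summed Schwann cell markers overlapped between genotypes, at 257 to 295 CPM in wild type and 283 to 303 CPM in Tnc-/-, with 1 of 9 tested called higher and 1 lower. Pmp22, at 140 to 163 CPM, was the largest part of that sum in every library. Mbp was higher in every Tnc-/- library than in every wild-type library, and Cdh19 was lower.

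Non-overlap between genotypes held for 4 of the 6 genes on each scale, against 35.1% of all genes in TMM-scaled CPM and 34.4% in CPM of raw totals. Sdc2, Sdc3 and Ptprz1 were in both sets, with Cspg4 the fourth under TMM and Sdc4 the fourth under raw totals. Among the Tnc-/- libraries, 5 of the 6 genes were highest in library 4, the exception being Ptprz1. That library was also the highest of all 7 in the summed markers of tendon fibroblasts (26260 CPM), osteoblasts (19868 CPM), chondrocytes (2676 CPM), macrophages (1254 CPM), Schwann cells (303 CPM) and satellite cells (123 CPM). The tendon sum ran from 13998 to 21971 CPM in wild type and from 15446 to 17914 CPM in the other Tnc-/- libraries. Most of it was Col1a1 (18574 CPM in Tnc-/- 4), which the osteoblast list also holds. Tnmd, Thbs4 and Fmod were highest of all 7 in that library too, whereas Mkx, Dcn and Lum were not. Among the Tnc-/- libraries alone, Dcn and Lum were highest in library 4. Scx of the tendon list was at 0 in all libraries, and Tnmd, a marker of mature tendon, was at 182 to 361 CPM. A count of 0 in every library can come from the counting as well as from the tissue, which was not tested. The part of these cells in the levels of the 6 genes was not tested.

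The genes that fell were the longest of the 6. Sdc2 spans 114 kb on chromosome 15 and Ptprz1 177 kb on chromosome 6 in GENCODE M21, against 22.4 kb for Sdc1, 33.8 kb for Sdc3, 19.6 kb for Sdc4 and 34.8 kb for Cspg4. Among all tested genes spanning 100 to 300 kb, falls in Tnc-/- made up 91.5% of the calls and the median log2 fold change was -0.69. Among those spanning 10 to 50 kb, falls made up 48.7% and the median was 0.081. Sdc2, at -0.53, thus fell by less than the median of genes in its span class and Ptprz1, at -1.15, by more. The part of gene span in either value was not tested.

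**Figure D2:**
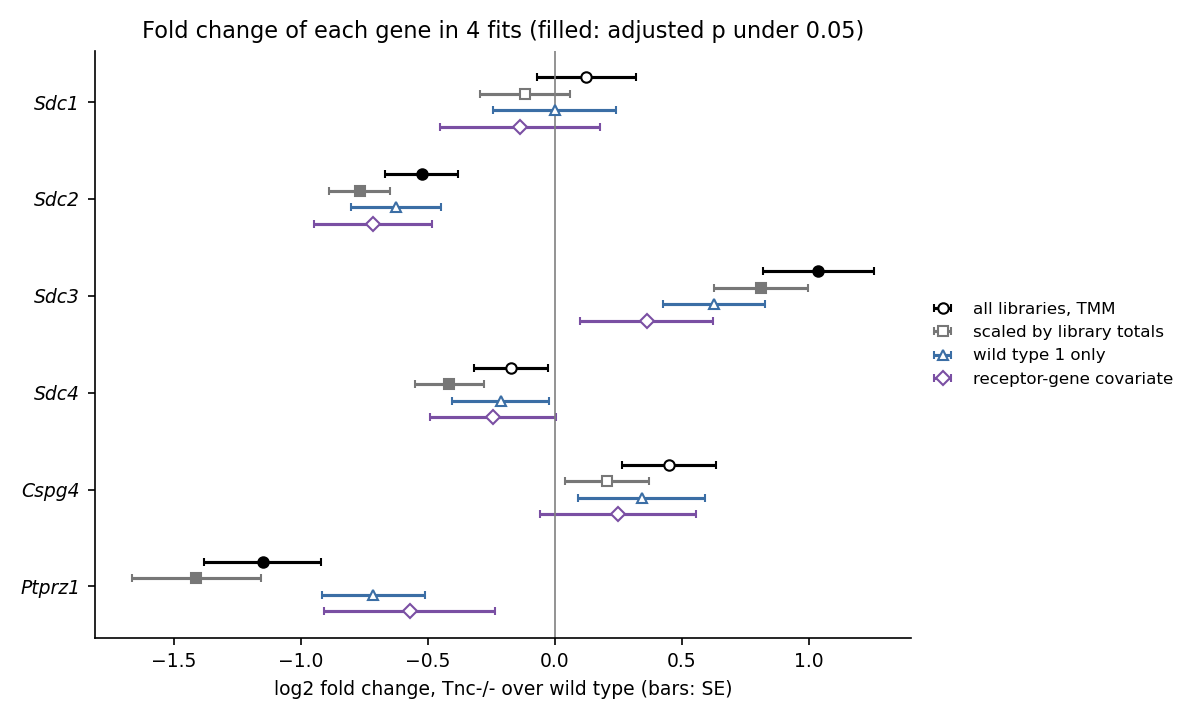
Log2 fold change of the 6 genes, Tnc-/- relative to wild type, in 4 edgeR fits that differ in scaling, in the wild-type libraries used or in a covariate. Bars are standard errors, and filled symbols have an adjusted p under 0.05. The value of Sdc3 goes from 1.04 to 0.36 and Ptprz1 from -1.15 to -0.57 with the receptor covariate, whereas Sdc2 goes from -0.53 to -0.72.

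Levels can be set side by side between genes only per length of transcript. Per kb of merged exon, in TMM-scaled CPM, wild-type levels were 72.4 ± 8.35 for Sdc2, 33.3 ± 2.05 for Sdc4 and 25.6 ± 3.24 for Sdc1 (SD, n = 3). They were 11.3 ± 3.49 for Sdc3, 7.50 ± 0.486 for Cspg4 and 2.19 ± 0.752 for Ptprz1. The Tnc-/- levels, in the same unit, were 50.3 ± 5.39 for Sdc2, 29.5 ± 4.71 for Sdc4 and 27.9 ± 6.79 for Sdc1 (SD, n = 4). Sdc3 was at 23.2 ± 3.23, Cspg4 at 10.2 ± 2.38 and Ptprz1 at 0.984 ± 0.0692. The order Sdc2, Sdc4, Sdc1, Sdc3, Cspg4, Ptprz1 held in 6 of 7 libraries, and in Tnc-/- 4 Sdc1 lay above Sdc4. Neighbours were not always apart. In wild type the ranges of Sdc3 (8.01 to 15.0) and Cspg4 (7.12 to 8.05) met. In Tnc-/- the ranges of Sdc4 (24.9 to 35.8), Sdc1 (23.3 to 37.7) and Sdc3 (19.3 to 26.1) ran into each other.

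The make-up of the syndecans differed between genotypes, while the ranges of their sum overlapped. Summed per kb levels were 154, 127 and 146 CPM per kb in the wild-type libraries and 118, 116, 132 and 158 in the Tnc-/- libraries. Sdc2 made up 50.2, 49.3 and 52.8% of that sum in wild type and 38.7, 41.5, 37.5 and 36.8% in Tnc-/-. Sdc3 made up 9.71, 6.29 and 7.47% in wild type and 18.4, 16.7, 19.4 and 16.6% in Tnc-/-. Sdc1 made up 18.0, 17.1 and 18.5% in wild type and 19.7, 20.2, 20.4 and 23.9% in Tnc-/-. These per kb shares of Sdc1, Sdc2 and Sdc3 did not overlap between genotypes, which was not counted over all genes. The share of Sdc4 did overlap, at 23.5 ± 3.28% in wild type (SD, n = 3) and 22.5 ± 0.695% in Tnc-/- (SD, n = 4). The ratio of Sdc2 to Sdc3 per kb, chosen after the values were seen, was 5.17, 7.84 and 7.07 in wild type and 2.10, 2.48, 1.94 and 2.22 in Tnc-/-. Wild-type library 1 lay nearest to Tnc-/- in this ratio. Shares and this ratio within a library do not depend on how the library is scaled, but they do depend on the division by length. As shares of CPM without that division, the means of Sdc3 were 13.2% in wild type and 28.0% in Tnc-/-, against 7.82 and 17.8% per kb, and those of Sdc2 were 50.6 and 35.8%. Without it the shares of Sdc1 overlapped, at 18.9 to 19.8% in wild type and 19.7 to 24.1% in Tnc-/-, while those of Sdc2 and Sdc3 did not.

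**Figure D3:**
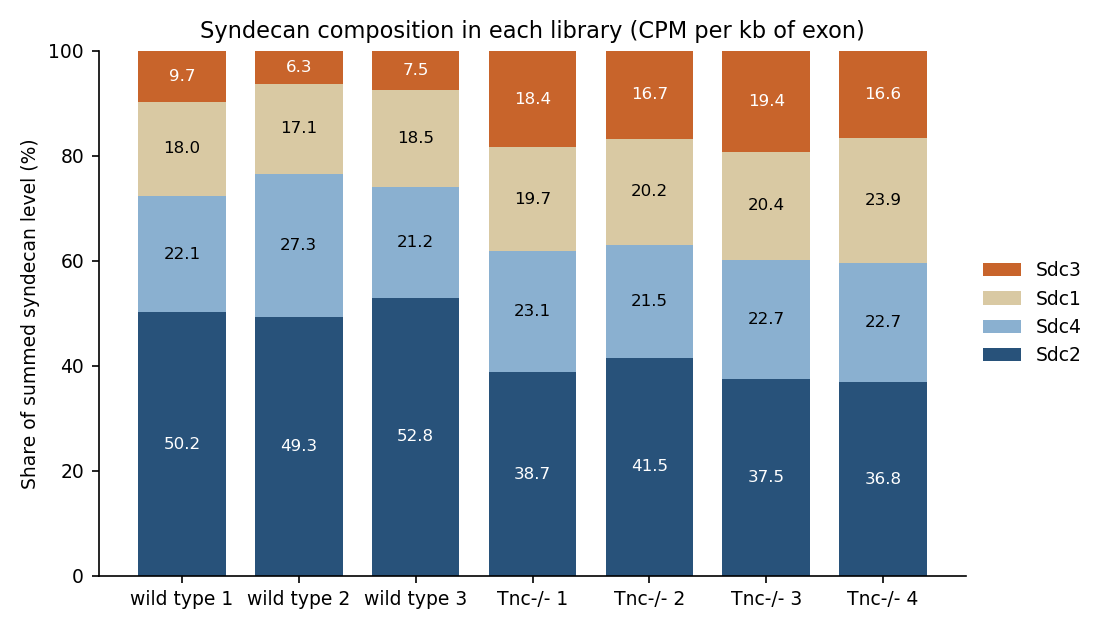
Share of each syndecan in the summed syndecan level per kb of exon, in percent, for each library. Each stacked bar is 1 library and adds up to the whole. The Sdc2 portion is 49.3 to 52.8% in wild type and 36.8 to 41.5% in Tnc-/-, and the Sdc3 portion is 6.29 to 9.71% and 16.6 to 19.4%.

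Genes with the most similar pattern were sought by the root-mean-square difference of centred log2 CPM over the 7 libraries among 12308 genes. Nearest to Sdc2 were Pls3 (0.034 log2 units) and Wwtr1 (0.056), and nearest to Sdc1 were Ptgfrn (0.046) and Fn1 (0.054). Rxrb (0.063) and Flna (0.080) were nearest to Sdc3, and Selenos (0.073) and Ackr3 (0.078) to Sdc4. Zdhhc8 (0.033) and Hsf4 (0.068) were nearest to Cspg4. Abca5 (0.12) and Zfp946 (0.13) were nearest to Ptprz1 and less close than the nearest genes of the other 5.

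The rest of the proteoglycan machinery was examined in 9 lists. Of 97 tested genes, 30 were called (9 higher and 21 lower in Tnc-/-), or 30.9%, close to the 29.0% of all genes. By direction, 10.3% of all genes were called higher and 18.7% lower. Over the whole table the share called was 64.2% without wild-type library 1, 16.0 and 12.3% without wild-type libraries 2 and 3, and 14.5 to 17.6% without 1 Tnc-/- library. List counts in those fits are to be read against these shares. The glypicans, heparan sulfate proteoglycans held to the membrane by a lipid anchor, had 4 of 5 tested genes lower and 0 higher, with a median log2 fold change of -1.09 against -9.0e-04 over all genes. Gpc3 was at 48.0, 43.6 and 44.8 CPM in wild type and at 18.6, 23.6, 18.3 and 24.9 CPM in Tnc-/-. The wild-type libraries were alike and the groups were far apart, with a log2 fold change of -1.09 (SE 0.16; edgeR, Benjamini-Hochberg adjusted p = 0.0067). Gpc3 stayed called against wild-type library 1 alone (-1.18, adjusted p = 0.0102) and with the receptor covariate (-1.23, adjusted p = 0.0327) in edgeR, which none of the 6 proteoglycan genes did. Gpc5 was at 4.56, 179.6 and 137 CPM in wild type and at 0.111 to 0.592 CPM in Tnc-/-, so its wild-type level came mostly from libraries 2 and 3 (edgeR, adjusted p = 0.0067). With wild-type library 1 alone 3 glypicans were called, and with the receptor covariate 1, which was Gpc3.

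Enzymes that build the sugar chains were next. In heparan sulfate synthesis and editing, 3 of 22 tested genes were higher and 8 lower, with a median log2 fold change of -0.38. These 11 calls became 5 without wild-type library 2, 4 without wild-type library 3 and 4 to 7 without 1 Tnc-/- library, and with the receptor covariate the median was 0.089. Ndst4, an N-deacetylase and N-sulfotransferase, had 51, 617 and 338 counts in wild type and 0, 0, 1 and 2 counts in Tnc-/- (edgeR, adjusted p = 0.0067). Hs6st3, a 6-O-sulfotransferase, was at 3.92, 79.9 and 64.0 CPM in wild type and at 0.370 to 1.67 CPM in Tnc-/- (edgeR, adjusted p = 0.00767). Limma voom called 1 of the 22, beside 5.47% of all genes, and gave no call to Ndst4 or Hs6st3. Both were far higher in wild-type libraries 2 and 3 than in library 1, and Ndst4 was the 1 gene of the list still called against library 1 alone, and likewise with the covariate. In chondroitin and dermatan sulfate synthesis, 0 of 15 tested genes were higher and 2 lower, with a median of -0.26. Without wild-type library 1, 4 were higher and 3 lower and the median turned to 0.077, and with no filter on low counts 2 were higher and 2 lower. The 2 called with all libraries were Csgalnact1 (24.8, 65.9 and 64.3 CPM in wild type, 21.6 to 28.1 CPM in Tnc-/-) and Chsy3 (15.6, 98.5 and 65.3 CPM, and 12.4 to 24.4 CPM), which start and extend the chain. For both, wild-type library 1 lay within the Tnc-/- range, and both calls were lost without wild-type library 2 or 3 or any 1 Tnc-/- library. Of the 7 linker enzymes, 2 were higher and 1 lower without wild-type library 1, with a median of 0.31, and 0 were called with library totals. The covariate fit called 1, Xylt1, as higher. With all libraries and TMM scaling 1 was higher and 0 lower, with a median of 0.19. The called gene was B3gat3, which adds the glucuronic acid of the linker, at 45.7, 33.5 and 32.3 CPM in wild type and 52.5 to 60.4 CPM in Tnc-/- (log2 fold change 0.57; edgeR, adjusted p = 0.0253), and its call was lost without wild-type library 2 or 3 or any 1 Tnc-/- library, against wild-type library 1 alone (0.27) and with the covariate (0.12).

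Inside the cell, 4 of 12 syndecan tail partners and adaptors were higher, beside 10.3% of all genes, and 0 lower, with a median log2 fold change of 0.41. The 4 calls became 6 without wild-type library 1 and 2 on leaving out wild-type library 2, wild-type library 3 or any of Tnc-/- 1, 3 and 4, as calls over all genes also rose and fell. With library totals 2 were higher and 1, Cask, was lower, with a median of 0.17. Gipc1, a PDZ protein that binds the syndecan tail, was at 39.6, 31.5 and 34.1 CPM in wild type and at 54.6, 58.2, 55.6 and 66.1 CPM in Tnc-/- (0.74, SE 0.14; edgeR, adjusted p = 0.00816). The kinase gene Src was at 37.4, 35.8 and 29.0 CPM and at 50.1, 48.8, 57.6 and 61.7 CPM (0.68, SE 0.15; edgeR, adjusted p = 0.0126). Against wild-type library 1 alone Gipc1 stood at 0.56 and Src at 0.54, with a list median of 0.43, and with the receptor covariate at 0.46 and 0.48, with a list median of 0.31. In these fits 0 of the 12 were called. Of 8 tested sheddases and related proteases, which release syndecan ectodomains, 0 were called and the median was 0.0085 in edgeR. At an unadjusted p under 0.05 there was 1, Mmp3 (-0.53, SE 0.21; edgeR, adjusted p = 0.0943). Mmp3 was called lower against wild-type library 1 alone, with the receptor covariate and with library totals, where Adam10 was the other gene called. Without wild-type library 1 the gene called was Mmp14, higher in Tnc-/-. DESeq2 and limma voom called 0 of the 8.

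Among 8 ligands and partners of Ptprz1, 4 were lower and 0 higher, with a median log2 fold change of -0.98. Against wild-type library 1 alone 1 was called and the median was -0.40, and with the receptor covariate 0 were called and the median was -0.025. Limma voom called 0. Tnr, the tenascin of the nervous system, was at 5.53, 57.8 and 32.4 CPM in wild type and at 0.680 to 1.78 CPM in Tnc-/- (-4.98; edgeR, adjusted p = 0.0067). Cntn1, which encodes contactin-1, was at 1.66, 37.4 and 33.4 CPM and at 0.0523 to 0.390 CPM (-6.86; edgeR, adjusted p = 0.0068). As with Gpc5, wild-type libraries 2 and 3 held most of the signal. Against wild-type library 1 alone Tnr stood at -2.46 (edgeR, adjusted p = 0.0244) and Cntn1 at -3.01 (0.0876). With the covariate they stood at -1.46 and -1.69 (edgeR, adjusted p = 0.135 and 0.201). The secreted ligands Ptn, Mdk and Il34 did not pass the test. Ptn, encoding pleiotrophin, averaged 106 CPM in wild type and 78.4 CPM in Tnc-/- (-0.43; edgeR, adjusted p = 0.0990), and Mdk, encoding midkine, 25.5 and 25.1 CPM (-0.027; edgeR, adjusted p = 0.946). Il34, encoding interleukin-34, averaged 33.0 and 16.6 CPM (-0.99; edgeR, adjusted p = 0.0783). Both Ptn and Il34 were called lower with DESeq2 and Benjamini-Hochberg adjustment and with library totals, Ptn also without Tnc-/- 4 and Il34 without wild-type library 1.

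Among 13 tested ligands and partners of Cspg4, 2 were lower and 0 higher, with a median log2 fold change of 0.11. Leaving out 1 library moved that median from -0.0046 (without Tnc-/- 4) to 0.22 (without wild-type library 1). Without wild-type library 1 the calls were 3 higher and 2 lower. Against that library alone 1 was called (median -0.061), and 0 were called with the receptor covariate (median -0.24) or with limma voom. Grip1, a PDZ scaffold that binds the Cspg4 tail, was at 3.76, 95.6 and 57.6 CPM in wild type and 0.814 to 1.504 CPM in Tnc-/- (edgeR, adjusted p = 0.00716). Mmp16, a membrane protease, was at 15.1, 67.3 and 35.7 CPM and at 9.69 to 11.4 CPM (edgeR, adjusted p = 0.0120). Both were lowest in library 1 among the wild-type libraries. With the covariate Grip1 went from -5.71 to -0.54 and Mmp16 from -1.89 to 0.10, neither called (edgeR, adjusted p = 0.493 and 0.908). Of 7 tested heparin-binding matrix proteins and growth factors, 1 was higher and 1 lower, with a median of 0.21. That median was 0.021 without wild-type library 2, and the calls were 2 higher and 1 lower without wild-type library 1. Vegfa rose, from 103.3, 95.7 and 78.9 CPM to 149, 198.5, 185 and 172 CPM (log2 fold change 0.93, SE 0.15; edgeR, adjusted p = 0.00711). Its groups lay well apart, but the call was lost against wild-type library 1 alone (0.76; edgeR, adjusted p = 0.0510) and with the receptor covariate (0.72; edgeR, adjusted p = 0.159). Hgf was lower, at 4.08, 10.2 and 6.74 CPM in wild type and 0.889 to 2.63 CPM in Tnc-/- (edgeR, adjusted p = 0.0343), and was no longer called once wild-type library 2 or 3 or any 1 Tnc-/- library was left out, against wild-type library 1 alone and with the covariate. With library totals as scaling the medians of the linker, sheddase, Cspg4 partner and heparin-binding lists turned to -0.056, -0.23, -0.13 and -0.046.

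The called list genes were spread over the wild-type libraries much as all called genes were. Relative to the Tnc-/- mean, the 21 list genes called lower had median log2 ratios of 0.73, 2.61 and 2.198 in wild-type libraries 1 to 3, and the 9 called higher -0.46, -0.88 and -0.79. Over all genes the medians were 0.63, 3.21 and 2.71 for the 3329 called lower and -0.54, -0.94 and -0.96 for the 1830 called higher. Sdc2 stood at 0.62, 0.32 and 0.62, so library 1 was as high as library 3. Ptprz1 stood at 0.69, 0.94 and 1.59 and Sdc3 at -0.63, -1.52 and -1.08, with library 1 nearest to Tnc-/- in both. The receptor genes were low in wild-type library 1 and high in libraries 2 and 3, and the part of such reads in these values was not tested beyond the fits given above.

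**Figure D4:**
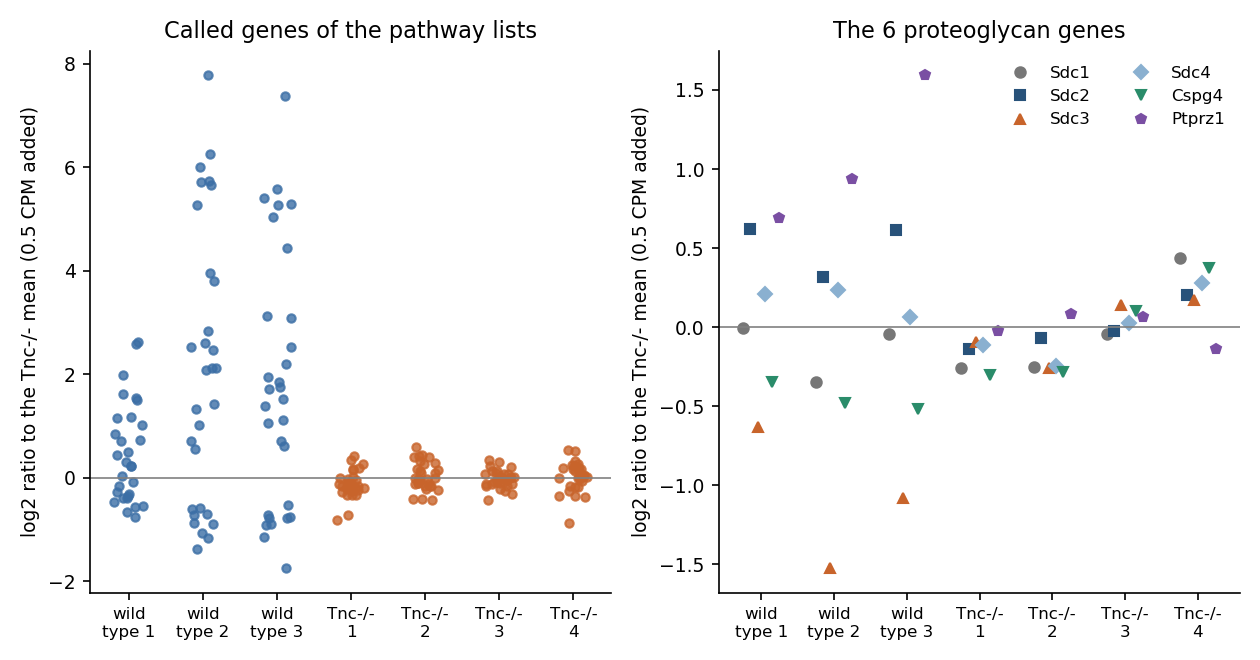
Log2 ratio of each gene in each library to its Tnc-/- mean, with 0.5 CPM added, for the 30 called genes of the 9 lists (left) and for the 6 proteoglycan genes (right). Each point is 1 gene in 1 library, and the vertical scales of the panels differ. The called list genes range most widely in wild-type libraries 2 and 3, whereas Sdc2 is as high in wild-type library 1, at 0.62, as in library 3.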

How the data were processed

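RNA was measured in 7 libraries, grouped by the genotype in the labels. The authors deposited raw read counts per gene; the submitters' processing notes name FastQC 0.11.9, HISAT2 2.2.1, HTSeq 2.0.2, DESeq2 1.38.3 and the build GRCm39 (mm39). The annotation release and the strand setting are not given in the sources used here. Wild-type files listed 56980 identifiers and Tnc-/- files 56941, with 56854 in common. Rows that name no gene, found in the Tnc-/- files only, held 30.1 to 32.7% of their reads and were left out.

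Tests on counts used edgeR 4.0.16 (R 4.3.3): filterByExpr, TMM scaling, robust dispersions and the quasi-likelihood F test with genotype as the term, Benjamini-Hochberg adjusted over 17791 genes at a threshold of 0.05. The fold is always Tnc-/- over wild type. Replicates differed by more than sampling noise (chi-square per degree of freedom 20.3 to 123). Exon lengths and gene spans came from GENCODE M21 (GRCm38) and promoters from RefSeq (GRCm38.p6), so no position in the authors' build is given.

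From each list the text gives counts of calls and names the 2 called genes with the smallest p, or all if fewer. Ptn, Mdk, Il34, Cask, Mmp3, Mmp14, Adam10, Xylt1 and single marker genes were named after their values were seen. Similar genes had a mean of at least 5 CPM and were not predicted models or pseudogenes. The 6 genes and the lists were chosen with earlier results of these data known. Alternatives were DESeq2 1.42.0, limma voom (limma 3.58.1), other scalings and filters, thinning, leaving out libraries, a receptor-gene covariate and a replicate block. The values of list genes under these were added after seeing the data.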

Additional observations from a re-analysis of the deposited data

Results flagged for a closer look

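Dixon's gap ratio was taken for 21 values over the 4 Tnc-/- libraries, and in 2 of them a single library passed the 95% critical value, which about 1 in 20 does by chance. The share of Sdc1 in the summed syndecan level per kb was 23.9% in Tnc-/- 4, against 19.7, 20.2 and 20.4% in Tnc-/- 1 to 3, with a gap of 0.832 of the whole range. The summed plasma cell markers were at 562 CPM in Tnc-/- 4, against 425, 428 and 440 CPM in the other Tnc-/- libraries, with a gap of 0.892 of the range. Txndc5 (270 CPM) and Xbp1 (184 CPM), genes of secretory cells in general, made up most of that sum. Jchain (69.1 CPM), Fkbp11 (21.8 CPM) and Derl3 (1.88 CPM) were also at their highest among the Tnc-/- libraries there. Prdm1 (4.81 CPM) and Irf4 (9.36 CPM) were at their lowest. Groups of 3 were not tested, so no wild-type library is covered.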

How the results depend on the processing

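Several alternatives changed calls; where no value shows why, the cause was not tested. Over the whole table the count of 5159 calls became 1653 with DESeq2 and Bonferroni adjustment, the adjustment the series text names, 973 with limma voom, 825 with wild-type library 1 alone and 397 with the receptor covariate. Leaving out 1 library gave 2229 (without wild-type library 3) to 14113 calls (without wild-type library 1). Of the 6 genes, 0 were called with DESeq2 Bonferroni (1653 genes in all), with wild-type library 1 alone or with the covariate, and 1 to 4 when 1 library was left out. DESeq2 with Benjamini-Hochberg adjustment called the same 3 genes.

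The log2 fold change of Sdc2 lost its call with DESeq2 Bonferroni (-0.57), limma voom (-0.52), no filter on low counts (-0.45), wild-type library 1 alone (-0.62) and the covariate (-0.72). Sdc3 lost it with DESeq2 Bonferroni (0.997), library 1 alone (0.63) and the covariate (0.36). Ptprz1 lost it in these 3 fits, at -1.19, -0.72 and -0.57. On unscaled log2(CPM + 1) the exact two-sided permutation test cannot go below 0.0571, so it could pass none. That was the value it gave for Sdc2 (-0.74), Sdc3 (0.84), Sdc4 (-0.40) and Ptprz1 (-1.26). Sdc4 gained a call with library totals (-0.42). Sdc1 changed sign with library totals (-0.12), unscaled CPM (-0.12), library 1 alone (-0.0020), the covariate (-0.14) and without Tnc-/- 4 (-0.060).

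When 1 library was left out, log2 fold changes ran from -0.060 to 0.28 for Sdc1, -0.62 to -0.38 for Sdc2, 0.84 to 1.39 for Sdc3 and 0.29 to 0.60 for Cspg4. Those of Sdc4 and Ptprz1 ran from -0.28 to -0.061 and from -1.24 to -0.84. Of the 15 list genes followed through the alternatives, Csgalnact1 (0.36), Chsy3 (0.81) and Mmp16 (0.10) turned to higher in Tnc-/- with the covariate, and Chsy3 (0.082) with library 1 alone. Gpc5, Ndst4 and Cntn1 were not tested in the fit that asked for at least 10 counts in every library.

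Replicate numbers are shared between the genotypes but number different mice, so the main fit did not pair the libraries. Correlations of same-numbered deviations were -0.029, 0.073 and -0.014, and not every library correlated best with its own number. So few libraries cannot exclude a pairing. With the replicate block, 1932 genes were called, Sdc2 stood at -0.60 (edgeR, adjusted p = 0.0735) and Sdc1 at -0.053, while Sdc3 (1.01) and Ptprz1 (-1.05) stayed called.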
